A study of Mus musculus with 8 samples.

Results

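The lysosome and autophagy genes described here were 39 named genes of the deposited expression table, and all 39 reached the required mean of 1 FPKM (sequenced fragments per unit of transcript length and of library size) over the 8 libraries. They were 39 of 11612 genes at that level and of 24067 in the table. The cells were primary articular chondrocytes, which lay down the matrix of joint surfaces, taken from knees of 5-day-old ICR mice, an outbred stock, and kept in 3% oxygen and 10% serum. They were transfected for 24 h with 50 nM of the small RNA miR-204 or of its control miR-Ctrl and collected 24 h later, with 4 libraries in each group. Both groups were thus transfected, and the labels name no genetic change in the mice.

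Lysosomes are acidic compartments in which hydrolases break down proteins, lipids, glycogen and glycosaminoglycans, the sugar chains that chondrocytes both make and recycle. In autophagy a membrane closes around cytoplasm and delivers it to the lysosome. The transcription factors TFEB and TFE3 switch on many of these genes together by binding a short palindrome with the core CACGTG near their start sites. A small RNA such as miR-204 acts after transcription, by pairing of its seed, bases 2 to 8, with matches in 3′ UTRs.

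The mature strand of mouse miR-204-5p (RefSeq, GRCm38.p6, chr19:22750610-22750631, plus strand) is shown with its seed in capitals, because the question for the members is which of them carry a match.

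mmu-miR-204-5p: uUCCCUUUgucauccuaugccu

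The matches searched were the 8mer AAAGGGAA, the 7mer-m8 AAAGGGA, the 7mer-A1 AAGGGAA and the 6mer AAGGGA, on the transcript strand of the longest 3′ UTR of each gene in GENCODE release M21. A shorter word inside a longer match was not counted again. Of the 39 members, 3 had an 8mer, 5 had a 7mer-m8 as the best match and 10 had a 6mer alone. A 7mer or 8mer was thus present in 8 members (20.5%), against 24.0% of the 11192 tested genes with a 3′ UTR. The 8 were Lamp1, Ctsb and Tpp1 with an 8mer, and Map1lc3b, Mcoln1, Tfe3, Ctsl and Atp6v0e with a 7mer-m8. Over all annotated 3′ UTRs, 20.5% of members and 25.5% of tested genes had a 7mer or 8mer, and Mcoln1 had an 8mer. The 4 sites below are shown since Lamp1 and Map1lc3b were the members that went down in every pair of libraries while Ctsb and Tpp1, with 8mers of the same letters, did not. Capitals mark the match (mm10, transcript strand).

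Lamp1 3′ UTR, match at chr8:13174892-13174899: ttaagccttacAAAGGGAAtctctggtcca
Map1lc3b 3′ UTR, match at chr8:121592613-121592619: tagatgtcagaAAAGGGAgttataggtga
Ctsb 3′ UTR, match at chr14:63143453-63143460: aagtacagttcAAAGGGAAcagggagcctc
Tpp1 3′ UTR, match at chr7:105746580-105746587: tccctgtactaAAAGGGAAggctcagtttc

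The Lamp1 match began at base 334 of a 3′ UTR of 780 bases and that of Map1lc3b at base 1506 of 2002. The Map1lc3b match, at 121592613 on the plus strand, lay far before the end of the RefSeq gene, at 121598760. Whether the Map1lc3b transcripts measured here carry it was not tested. The Tpp1 match began at base 45 of 1821, close to the stop codon, and the Ctsb match at base 1124 of 3594. The 7mers of Ctsl lay in a long GENCODE 3′ UTR, at 64360447 and 64360243 on chromosome 13, outside the RefSeq gene (64361890 to 64370772).

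The TFEB-type word was common in the promoters of the members. The list holds known TFEB targets such as Mcoln1, so the choice of genes may not have been independent of the word. RefSeq windows of 300 bases, from 250 before to 50 after a start site, were listed for 33 members. The word TCACGTG, on either strand, was present in 13 of the 33 (39.4%) and, counting any listed window of a gene, in 675 of 9272 tested genes (7.28%; 3.77% of all 32851 windows). The full palindrome TCACGTGA, which contains that word, was present in 7 members (21.2%) and in 2.42% of tested genes. A match of letters is a description and shows no binding. The 4 stretches below come from Lamp1, which fell in one of the tests given later, Cln3, which rose, and Mcoln1 and Ctsd, which passed neither way, each read in the gene's own direction, with the word in capitals (RefSeq, GRCm38.p6).

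Lamp1, chr8:13159088-13159116, plus strand: agggcaagataTCACGTGgtccagcgccc
Mcoln1, chr8:3500462-3500491, plus strand: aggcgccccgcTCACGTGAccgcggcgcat
Ctsd, chr7:142387908-142387937, minus strand: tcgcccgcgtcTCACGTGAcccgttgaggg
Cln3, chr7:126583340-126583369, minus strand: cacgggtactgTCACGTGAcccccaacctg

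Lamp1 had 4 such words in its window, starting at positions −62, −45, −28 and −16 from the start site. The 13 members with TCACGTG had a median log2 fold change of 0.10 (−0.28 to 0.27) and the 20 without it a median of 0.12 (−0.19 to 0.26).

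The libraries differed in depth and by replicate number. Steps between low FPKM values gave the replicate 2 libraries of miR-Ctrl and miR-204 a depth of 0.774 and 0.798 relative to miR-Ctrl replicate 1, and the other 5 libraries 0.929 to 0.963. All 9 chondrocyte markers on a list of 9 were above 1 FPKM in every library, and their summed FPKM was 11651 and 11650 in the replicate 2 libraries against 23199 to 38180 in the other 6. Of 15 macrophage and osteoclast markers, between 3 and 4 reached 1 FPKM in a library. The markers that reached it were Acp5, Lyz2, Cd14 and Cd68, with means of 9.19, 7.25, 3.28 and 2.72 FPKM over the 8 libraries. Of the others, Ptprc was at no more than 0.0309 FPKM, Itgam at no more than 0.0427 and Csf1r at no more than 0.193. All 5 endothelial markers were below 1 FPKM. All 6 fibroblast markers on a list of 6 were above 1 FPKM in every library. Their summed FPKM was 1850 and 1934 in the replicate 3 libraries of miR-Ctrl and miR-204, against 2934 to 4264 in the other libraries. Fewer cells of a type and less RNA per cell cannot be told apart in such bulk libraries.

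The members spanned a wide range of levels. Ctsd, which encodes the aspartic protease cathepsin D, had the highest mean, 1404 FPKM, and ranked 42nd among all genes of the table. Psap, the precursor of proteins that help enzymes degrade sphingolipids, followed at 488 FPKM, then Lamp1 at 399 and Ctsl at 289.7. The lowest were Cln3 at 3.95 and Tfeb at 4.68 FPKM. The median member was at 33.03 FPKM and the median tested gene at 9.28. Together the 39 genes held 0.843% to 1.23% of the summed FPKM of a library. The mean was 1.03% ± 0.138 with miR-Ctrl and 1.08% ± 0.118 with miR-204 (SD, n = 4), a difference below the unpaired spread within a group. From miR-Ctrl to miR-204 of equal replicate number, 1 to 4, the share went from 1.14% to 1.23%, 1.13% to 1.1%, 0.843% to 0.945% and 1.02% to 1.05%.

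**Figure D1:**
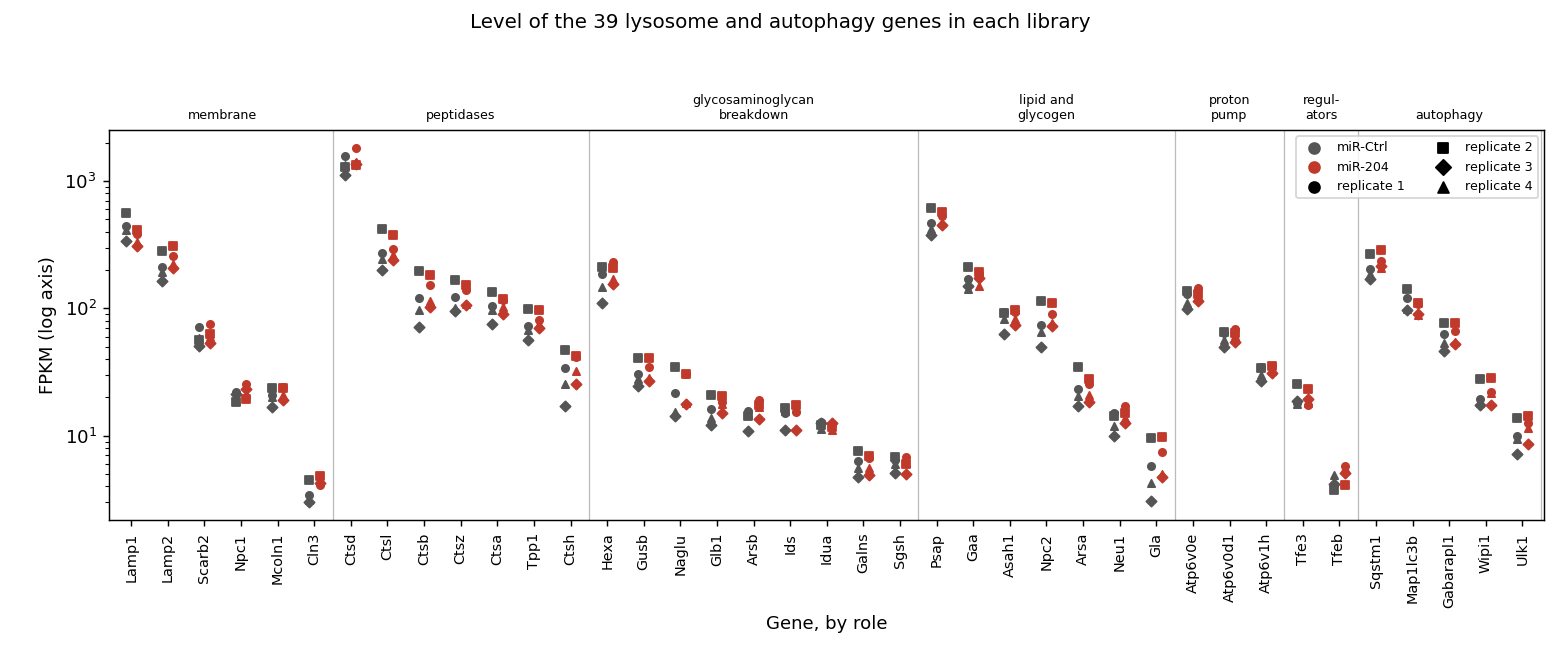
FPKM of each member (log axis) in the 4 miR-Ctrl libraries (grey) and the 4 miR-204 libraries (red), with 1 point per library, its shape giving the replicate number and genes ordered by role. Ctsd lay highest, at 1121 to 1829 FPKM, the groups overlapped for every gene, and the squares of replicate 2 were often at the top.

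The first question was whether miR-204 changed any member. Without regard to the replicate number, 0 of 39 members passed the test in either direction (limma on log2(FPKM + 1), Benjamini-Hochberg adjusted p below 0.05), with adjusted p-values of 0.53 to 0.999, and 1 member, Cln3, was higher at an unadjusted p below 0.05. Of all 11612 tested genes, 0.0258% were higher and 0.181% lower by the adjusted p. At an unadjusted p below 0.05, 763 of the 11612 were higher and 235 lower. The ranges of the 2 groups did not overlap in 0 of 39 members, against 5.9% of tested genes. The labels do not say whether libraries of a group were separate cultures or animals, so every p here reflects the spread of these 8 samples alone, and that spread may be technical.

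The replicate numbers did pair the libraries, and within pairs the members moved by small amounts. With the number as a block, 6 members were higher (Lamp2, Arsb, Cln3, Neu1, Sqstm1 and Ulk1) and 1, Lamp1, was lower. That is 6 and 1 of 39 against 12.4% higher and 2.83% lower among all tested genes, so the share of members called was near that of genes in general. With libraries centred on their median the members called were Lamp2 and Arsb (higher) and Lamp1 and Map1lc3b (lower), against 4.99% and 4.32% of all genes, and quantile normalization gave the same 4 genes (4.78% and 4.62%). The blocked calls depended on which pairs were in the fit. Without both libraries of replicate 1, 3 or 4 the blocked test called 0 members, and few genes of any kind (0.766% higher and 0.715% lower, 2.03% and 1.28%, and 0.362% and 0.413% of all tested genes), while the log2 fold change of Lamp1 was −0.30, −0.32 and −0.27. Without those of replicate 2 it called 24 members higher and 2 lower, against 23.9% and 4.5% of all tested genes. In 33 of 39 members the log2 fold change lay above 0, with a median of 0.11, as did 74.1% of all tested genes, whose median was 0.064.

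Membrane proteins of the lysosome gave a contrast between close relatives. Lamp1 (gene ID 16783; chromosome 8, 13159161 to 13175338) encodes one of the main glycoproteins that line the lysosomal membrane. It was at 445, 560.2, 340.2 and 414 FPKM in miR-Ctrl replicates 1 to 4 and at 386, 409, 307 and 332 in the miR-204 replicates. It was lower with miR-204 in each pair, most in pair 2, and the groups overlapped, with replicate 3 low in both. The log2 fold change was −0.28 ± 0.16 (SE; adjusted p = 0.672), and ± 0.057 with the block, where it fell (adjusted p = 0.0276, and 0.0138 with centred libraries).

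Lamp2 (16784; chromosome X, 38399647 to 38456460), the close relative of Lamp1 that is also needed for autophagosomes to fuse with lysosomes, stood at 213, 284, 165 and 192 FPKM with miR-Ctrl and at 259, 308, 206 and 224 with miR-204. It was higher in each pair. Its log2 fold change was 0.23 ± 0.19 (adjusted p = 0.774), ± 0.045 with the block, where it rose (adjusted p = 0.0231, and 0.047 centred). Lamp2 had no match to the seed in its 3′ UTR of 2205 bases, whereas Lamp1 had the 8mer printed above and a 6mer.

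A ratio within a library does not depend on how libraries are scaled. The FPKM of Lamp2 over that of Lamp1 was 0.478, 0.507, 0.484 and 0.464 in the miR-Ctrl libraries and 0.671, 0.751, 0.670 and 0.674 in the miR-204 libraries. The means were 0.483 ± 0.0180 and 0.692 ± 0.0398 (SD, n = 4), 1.43-fold apart, and the 2 groups were separate with replicates 1, 3 and 4 nearly equal inside each. The 2 genes were chosen for this ratio after their values were seen, so it is given without a test.

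Cln3, an endolysosomal membrane protein whose loss causes a childhood neurodegenerative storage disease, was at 3.40, 4.49, 2.998 and 3.12 FPKM and then at 4.11, 4.79, 4.27 and 4.41. It was higher in each pair (log2 fold change 0.27, adjusted p = 0.53) and rose with the block (adjusted p = 0.0418), but did not pass with centred libraries (adjusted p = 0.0813). Mcoln1, a lysosomal calcium channel gene and a known TFEB target, was at 20.9, 23.6, 16.95 and 20.01 FPKM with miR-Ctrl and 24.01, 23.7, 18.98 and 20.8 with miR-204. It carried a 7mer in its longest 3′ UTR and an 8mer in another annotated one. Mcoln1 passed neither test (log2 fold change 0.10, adjusted p = 0.85, with the block 0.148). Scarb2, which carries glucocerebrosidase to lysosomes, and the cholesterol exporter Npc1 passed neither test and were both above their control in 4 of 4 pairs.

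**Figure D2:**
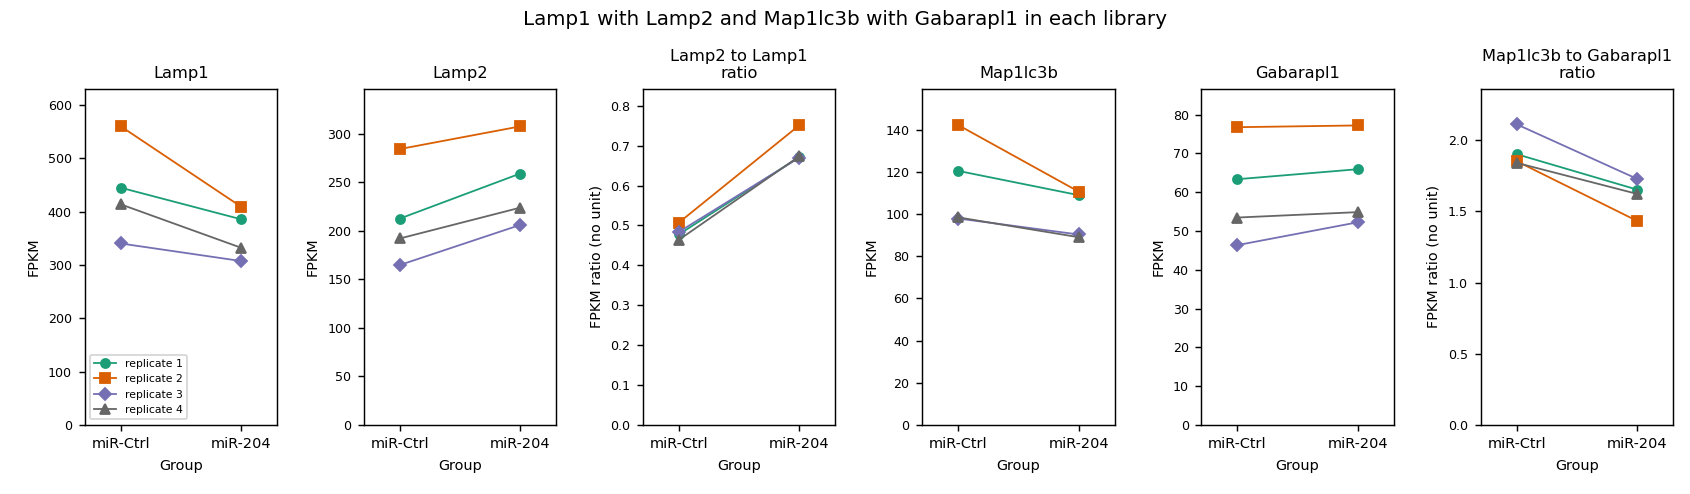
FPKM, or the ratio of 2 FPKM values, in miR-Ctrl and miR-204 libraries, with a line joining libraries of equal replicate number (4 lines per panel, axes from 0). Lamp1 and Map1lc3b lines slope down and Lamp2 lines slope up, and the Lamp2 to Lamp1 ratio goes from 0.464 to 0.507 up to 0.670 to 0.751.

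Among the autophagy genes, Map1lc3b moved down, while its relative Gabarapl1, described below, passed neither test. Map1lc3b (67443; chromosome 8, 121590438 to 121598760) encodes LC3B, the protein joined to lipid on growing autophagosomes. It was at 121, 142, 97.96 and 98.5 FPKM with miR-Ctrl and 109, 111, 90.4 and 89.1 with miR-204. Each pair was lower with miR-204, pair 2 most, with differences of −0.14, −0.36, −0.12 and −0.14 on the log2(FPKM + 1) scale. The log2 fold change of −0.19 ± 0.14 did not pass (adjusted p = 0.751), nor with the block (± 0.05, adjusted p = 0.0512), while it fell with the block and centred libraries (−0.25, adjusted p = 0.0222). Lamp1 and Map1lc3b were the 2 members below their control in 4 of 4 pairs, as were 876 of 11612 tested genes. Both had a 7mer or 8mer in the longest 3′ UTR. That of Map1lc3b lay far before the end of the RefSeq gene, and whether the transcripts measured carry it was not tested. The 8 members with a 7mer or 8mer had a median log2 fold change of 0.088 (−0.28 to 0.24). It was 0.098 in the 10 with a 6mer alone, 0.16 in the 21 with no match and 0.064 over all tested genes. Of the 8, Lamp1, Map1lc3b and Tfe3 lay below 0 and the others above. Among all tested genes 74.1% lay above 0. Whether a match bears on the fold change was not tested.

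Gabarapl1, another member of the LC3 family, was at 63.4, 76.8, 46.4 and 53.5 and 65.9, 77.2, 52.3 and 54.9 FPKM. It passed neither limma test (adjusted p = 0.96, with the block 0.27), so unlike Lamp2 it was not called higher. The Map1lc3b to Gabarapl1 ratio was 1.90, 1.85, 2.11 and 1.84 with miR-Ctrl and 1.65, 1.43, 1.73 and 1.62 with miR-204, also without overlap. Like the ratio of the Lamp genes it was picked after the values were seen and carries no test.

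Sqstm1, which encodes the p62 receptor that brings cargo to LC3, was at 203, 269, 169.6 and 187 FPKM and 236, 286, 214 and 206. It was higher in each pair, by 0.22, 0.09, 0.34 and 0.14 (log2), and rose with the block (log2 fold change 0.20, adjusted p = 0.0449; 0.784 without it), though not with centred libraries (adjusted p = 0.11). Ulk1, the kinase that starts autophagosome formation, was at 9.99, 13.8, 7.20 and 9.46 FPKM and 12.6, 14.2, 8.68 and 11.4. It too rose with the block (log2 fold change 0.21, adjusted p = 0.0463; 0.823 without it) and not with centred libraries (adjusted p = 0.122). Wipi1, which reads a lipid mark on the forming membrane, passed neither test.

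The transcriptional regulators were among the lower members. Tfeb was at 4.11, 3.76, 4.14 and 4.88 FPKM with miR-Ctrl and 5.82, 4.07, 5.09 and 5.61 with miR-204. It was above its control in each pair, by 0.42, 0.091, 0.24 and 0.17 (log2), and passed neither test (log2 fold change 0.23, adjusted p = 0.624, with the block 0.0509). Tfe3, with a 7mer-m8 and a 7mer-A1 in its 3′ UTR, was at 17.9, 25.3, 18.7 and 17.8 FPKM and 17.3, 23.4, 19.3 and 17.9. The log2 fold change of Tfe3 was −0.025 ± 0.13 (adjusted p = 0.984), with 2 pairs down and 2 up, and replicate 2 was the highest in both groups.

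The peptidases that digest protein in the lysosome split by pair. Ctsd was at 1566, 1281, 1121 and 1326 FPKM with miR-Ctrl and 1829, 1337, 1355 and 1417 with miR-204, higher in each pair (log2 fold change 0.16, adjusted p = 0.796, with the block 0.0699). Ctsb, the cysteine protease cathepsin B, was at 122, 196, 71.8 and 96.5 FPKM with miR-Ctrl and at 152, 181, 103 and 113 with miR-204. Its pair differences were 0.32, −0.11, 0.51 and 0.23 (log2), so it was higher in pairs 1, 3 and 4 and lower in pair 2 (adjusted p = 0.88, with the block 0.131). Ctsl, cathepsin L, was at 274, 424, 202 and 243 and 294, 380.3, 238 and 263 FPKM, with pair differences of 0.10, −0.16, 0.24 and 0.11 and a log2 fold change of 0.07 (adjusted p = 0.969). Ctsa, Ctsh, Ctsz and Tpp1 had that order too: 6 of the 7 peptidases were up in pairs 1, 3 and 4 and down in pair 2, a pattern of 16% of all tested genes. Ctsd was the exception. Of the 2 peptidases with an 8mer, Ctsb had a log2 fold change of 0.24 and Tpp1, a tripeptide-releasing enzyme, one of 0.15 (adjusted p = 0.856, with the block 0.117).

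The enzymes that take apart glycosaminoglycans were 9 in number. Arsb (11881; chromosome 13, 93771679 to 93943016) encodes arylsulfatase B, which removes sulfate from dermatan and chondroitin sulfate. It was at 15.5, 14.2, 10.95 and 14.8 FPKM with miR-Ctrl and 19.2, 17.4, 13.5 and 16.9 with miR-204. The pair differences of 0.29, 0.28, 0.28 and 0.18 (log2) were alike in size, and among members Arsb had the lowest adjusted p with the block (0.012; log2 fold change 0.26 ± 0.036; 0.647 unpaired). It rose with centred libraries as well (adjusted p = 0.0314). The other 8 passed neither test. Hexa, a subunit of beta-hexosaminidase, was the highest of them at 178 FPKM on average. Hexa, Gusb (beta-glucuronidase), Glb1 (beta-galactosidase) and Naglu, an enzyme of heparan sulfate breakdown, were up in pairs 1, 3 and 4 and down in pair 2, and so was Galns, which removes sulfate from keratan and chondroitin sulfate. Idua, Ids and Sgsh, which act on heparan sulfate, ranged over the 8 libraries from 11.02 to 12.9, from 11.03 to 17.3 and from 5.001 to 6.82 FPKM, with the groups overlapping in each.

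Among genes of lipid, glycoprotein and glycogen breakdown, Neu1, a sialidase, was at 15.1, 14.2, 9.95 and 11.8 FPKM with miR-Ctrl and 17.1, 14.97, 12.6 and 13.9 with miR-204. It was higher in each pair (log2 fold change 0.19, adjusted p = 0.75), rose with the block (adjusted p = 0.0432) and did not pass with centred libraries (adjusted p = 0.107). Psap was at 465, 616, 377 and 420.3 FPKM and 532, 574, 450.1 and 473, again up in pairs 1, 3 and 4 and down in pair 2 (log2 fold change 0.13, adjusted p = 0.865, with the block 0.201). Gaa, the acid glucosidase of glycogen, Arsa, a sulfatide sulfatase, and the cholesterol carrier Npc2 had the same order of pairs. Gla, an alpha-galactosidase, was above its control in 4 of 4 pairs and Asah1, a ceramidase, in 3 of 4, and neither passed a test. The 3 subunits of the proton pump that acidifies lysosomes, Atp6v0d1, Atp6v1h and Atp6v0e, passed neither test. Atp6v0e, with a 7mer, was at 129.7, 137, 99.8 and 111 and 144, 130.3, 114 and 126 FPKM (log2 fold change 0.11, adjusted p = 0.836).

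The second question was how the pairs of equal replicate number compared. The median log2 difference over the 39 members was 0.17 in pair 1, −0.024 in pair 2, 0.22 in pair 3 and 0.11 in pair 4, where the median of all tested genes was 0.052, 0.044, 0.10 and 0.069. Members above 0 numbered 35, 17, 35 and 35 in pairs 1 to 4, and tested genes above 0 numbered 7450, 7174, 8584 and 8157 of 11612. In 17 members (43.6%) pairs 1, 3 and 4 were up and pair 2 down, against 16% of tested genes. In all 4 pairs 15 members were up and 2 down, against 3933 and 876 of the 11612 tested genes. The share that went the same way in all 4 pairs was 43.6% of members and 41.4% of tested genes. Whether pair 2 differed from the rest was not tested, since it is a single pair.

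**Figure D3:**
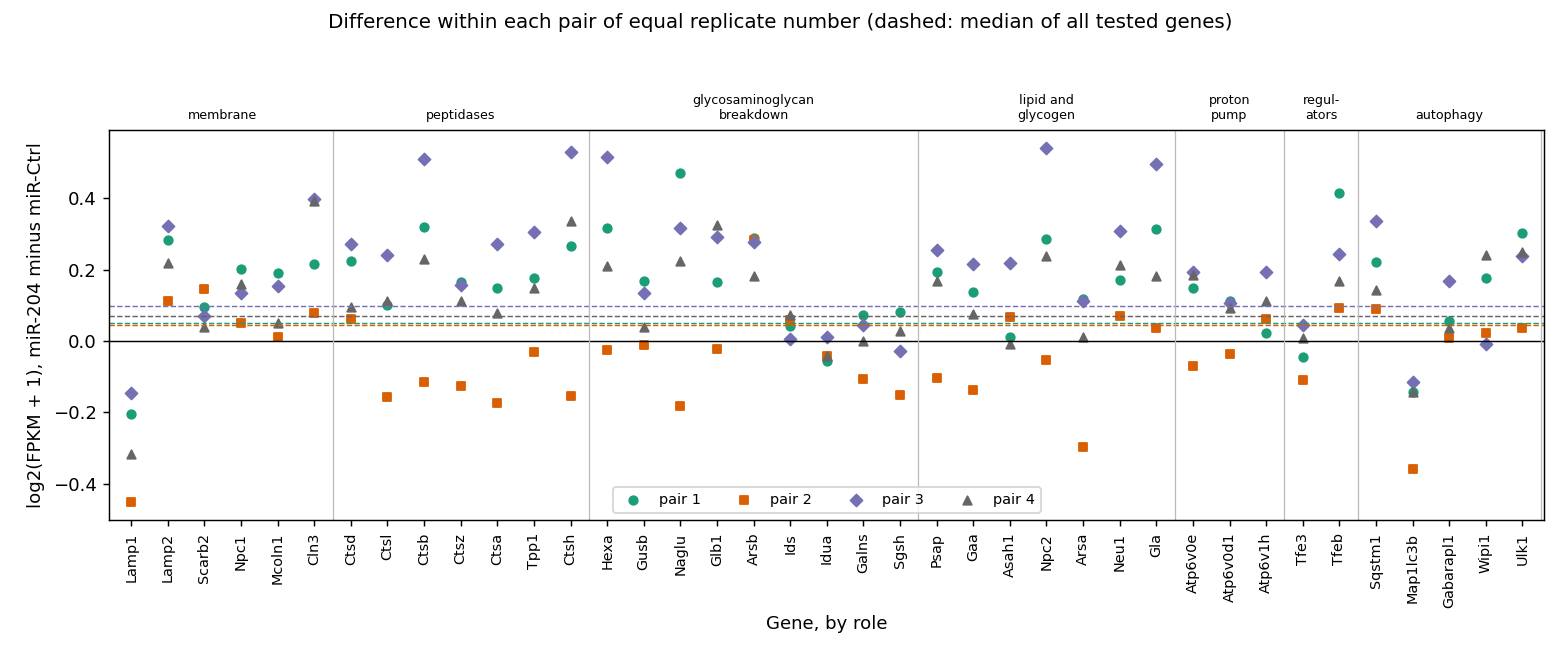
Difference in log2(FPKM + 1), miR-204 minus miR-Ctrl, within each pair of equal replicate number, with 4 points per member and dashed lines at the median of all tested genes in each pair. Lamp1 and Map1lc3b lie below 0 in all 4 pairs, and the orange squares of pair 2 fall below 0 for 6 of 7 peptidases.

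With the block and without both replicate 2 libraries, 24 of 39 members were higher (61.5%; 23.9% of all tested genes) and 2 lower. The 24 included all 7 peptidases, 5 of 7 lipid and glycogen genes, 4 of 9 glycosaminoglycan enzymes, and Tfeb. The 2 lower were Lamp1 and Map1lc3b. With centred libraries as well, 14 were higher and 2 lower (10.9% and 8.84% of all genes), with Ctsb and Ctsh the peptidases left. Ctsb then had a log2 fold change of 0.35 ± 0.057 (adjusted p = 0.0122, and 0.0214 centred) and Tfeb one of 0.28 ± 0.06 (adjusted p = 0.0251, and 0.0736 centred). These fits were read with the pattern of pair 2 known. Leaving out the pair that ran the other way favours calls in genes of that pattern. The counts therefore describe the pattern again and are no separate support for a change in the members.

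Differences between replicate numbers were wide in the members. With the treatment kept in the model, 36 of 39 members (92.3%) differed between replicate numbers (limma F test, adjusted p below 0.05), against 51.5% of all tested genes. The 3 that did not pass were Cln3, Idua and Tfeb. For 39 of 39 members the range between the means of the 4 replicate numbers was larger than the size of the log2 fold change. The same held in 10628 of 11612 tested genes. The measures are unlike, since a range over 4 means of fewer libraries tends to exceed a single difference between group means. The median range was 0.538 over the members and 0.289 over all tested genes (log2). The members were at higher levels (median 33.03 FPKM against 9.28), and log2(FPKM + 1) understates differences of low genes. No background matched for level was used, so these contrasts may partly reflect level. Replicate 2 was the highest number in 28 members (71.8%; 51.6% of tested genes) and replicate 3 the lowest in 33 (84.6%; 43.6%).

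Gla had the widest range, 1.15 on the log2 scale, with 5.81, 9.52, 3.05 and 4.29 FPKM in the miR-Ctrl libraries and 7.46, 9.79, 4.72 and 4.997 in the miR-204 libraries. Ctsb (1.13), Ctsh (1.05) and Naglu (0.98) came next, and Idua had the narrowest range (0.16). Naglu stood at 21.6, 34.5, 14.1 and 15.4 FPKM and 30.3, 30.3, 17.9 and 18.2, highest in replicate 2 of the miR-Ctrl group and equal in replicates 1 and 2 of the miR-204 group to the digits shown. Scarb2, Npc1, Ctsd, Arsb, Neu1, Sgsh, Idua and the 3 proton pump subunits were highest in replicate 1, and Tfeb in replicate 4, so the order was not shared by all members. Acan, the aggrecan core protein gene of cartilage, ran the other way, at 1572, 386, 1710.0 and 1249 FPKM in miR-Ctrl replicates 1 to 4 and 1149, 407, 1324 and 959 in the miR-204 replicates, lowest in replicate 2 of both groups. The part of cartilage state or of depth in the members' replicate differences was not tested.

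**Figure D4:**
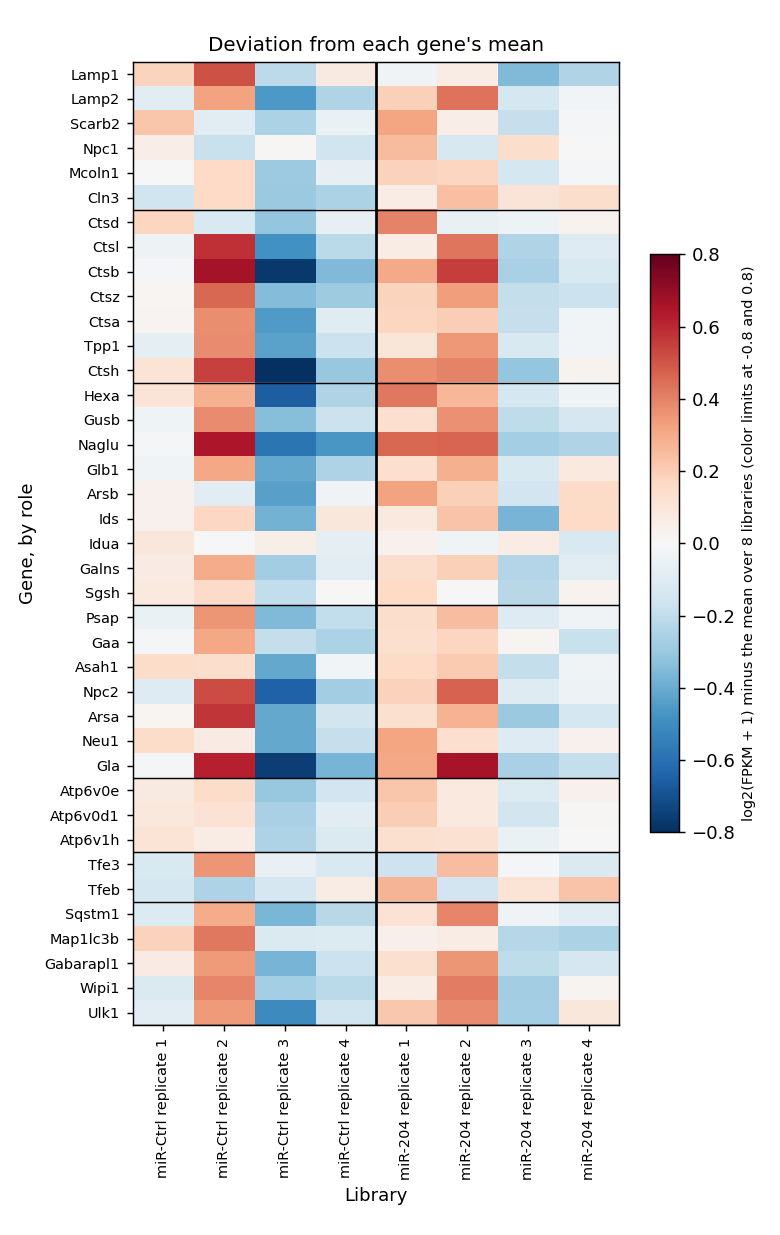
Deviation of log2(FPKM + 1) from each member's mean over the 8 libraries (colour, limits at −0.8 and 0.8), with miR-Ctrl libraries left and miR-204 libraries right of the line and genes grouped by role. The replicate 2 columns are mostly red and the replicate 3 columns mostly blue in both groups.

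Other genes of the lysosome and of autophagy were read from a list of 122, of which 121 were tested, all but Ctss. At an unadjusted p below 0.05 in limma, 8 were higher and 3 lower, against 763 and 235 of all 11612 tested genes. By the adjusted p 0 passed without the block. With it 24 were higher and 5 lower, where 12.4% and 2.83% of all tested genes were, and with centred libraries 12 and 7, where 4.99% and 4.32% of all tested genes were. Their median log2 fold change was 0.11. Among those that passed with the block, the 4 largest rises were Ctso (0.39, adjusted p = 0.0155 with the block) and Ctsc (0.35, 0.0206), cysteine cathepsin genes, Lipa (0.38, 0.00816), which encodes the acid lipase of cholesteryl esters, and Ostm1 (0.32, 0.0165), the partner of a lysosomal chloride transporter. All 4 also passed with centred libraries.

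Lipa was at 10.7, 15.8, 7.15 and 10.1 FPKM with miR-Ctrl and 14.97, 19.4, 10.3 and 13.02 with miR-204, higher in each pair. Among those that passed, the 4 largest falls were Nagpa (−0.42, adjusted p = 0.00428 with the block), the enzyme that uncovers the mannose 6-phosphate tag by which hydrolases are sorted to lysosomes, the autophagy lipid scramblase gene Atg9a (−0.26, 0.0298), Fnip1 (−0.25, 0.0356), whose product binds folliculin, and the sialic acid exporter gene Slc17a5 (−0.21, 0.023). Nagpa was at 10.1, 12.3, 8.01 and 8.81 FPKM and 7.29, 8.48, 5.88 and 6.50, lower in each pair by nearly the same amount. Atg9a was at 20.9, 24.5, 20.6 and 19.8 FPKM and 18.3, 17.8, 18.01 and 16.9, without overlap.

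By role, the block gave 3 of 7 other peptidases higher, 7 of 21 hydrolases, 4 of 15 membrane proteins (1 lower), 4 of 14 proton pump subunits, 1 of 4 genes for tagging of hydrolases (1 lower), 0 of 17 regulators (1 lower) and 5 of 43 autophagy genes (2 lower), against 12.4% of all tested genes higher and 2.83% lower. All 14 other proton pump genes had log2 fold changes above 0, with a median of 0.15, as did 74.1% of all tested genes. In the macrophage and osteoclast list, 2 lysosomal genes that other cells can also express rose with the block. Cd68 was at 2.003, 2.22, 0.545 and 1.28 FPKM with miR-Ctrl and 4.75, 4.74, 3.49 and 2.76 with miR-204 (log2 fold change 1.01, adjusted p = 0.247, with the block 0.00997), and Acp5 at 8.71, 8.02, 5.12 and 7.03 and 14.6, 10.1, 8.39 and 11.5 (0.56, 0.452, 0.00893). The summed FPKM of the 15 markers was 24.2, 31.4, 9.65 and 13.4 with miR-Ctrl and 34.2, 32.98, 18.8 and 22.1 with miR-204, while Ptprc and Itgam stayed near 0. Of the rest, Lyz2 was higher in 4 of 4 pairs and Cd14 in 3 of 4, while Emr1, Tyrobp, Fcer1g and Itgam, all below 1 FPKM on average, were higher in 0 of 4 pairs. The part of such cells in the members' values was not tested.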

How the data were processed

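RNA of 8 samples was sequenced from stranded mRNA libraries, per the labels' protocols. The authors deposited 1 table of FPKM values, and the submitters' processing notes name TopHat, Cufflinks 2.2.1 and mm10. Aligner version, Cufflinks mode and filters are not stated in any source at hand, so how reads of near-identical genes were divided is unknown. No count model was used, and relative depth came from the most frequent ratio of low FPKM values between libraries (0.774 to 1).

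The 11612 genes averaging 1 FPKM or more were tested on log2(FPKM + 1), which understates changes of low genes, with limma 3.58.1 in R 4.3.3 (trended prior, two-sided, Benjamini-Hochberg over all of them, threshold 0.05). The script was tested on simulated data. Pairing comes from the data: deviations from group means correlated across genes within replicate numbers 1 to 4 at r = 0.44, 0.816, 0.756 and 0.619, and each of 8 libraries correlated best with its own number. Fold changes are printed for members that passed either test, had a 7mer or 8mer or were always to be named (14 genes), and for the 4 largest rises and falls among other pathway genes that passed. Tfeb and Ctsb have a further one without replicate 2. Members and lists were chosen with earlier results of these data known. Alternatives were other pseudocounts, filters, scalings and priors, libraries left out and the block.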

Additional observations from a re-analysis of the deposited data

Results flagged for a closer look

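With 4 libraries in each group, 78 sets of values (39 members in 2 groups) were checked for a single library far from the others, which chance alone flags in about 1 of 20 sets, and 2 stood out. Ctsd was at 1829 FPKM in miR-204 replicate 1, where the other 3 miR-204 libraries were at 1337 to 1417. Tfe3 was at 25.3 FPKM in miR-Ctrl replicate 2, where the other 3 miR-Ctrl libraries were at 17.8 to 18.7.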

How the results depend on the processing

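The median log2 fold change of the members was 0.107, and leaving out 1 library gave 0.0215 (miR-Ctrl replicate 3 out) to 0.218 (its replicate 2 out). Without the replicate block, 0 members and 0 of the other lysosome and autophagy genes passed in either direction under all scalings, filters, pseudocounts and left-out libraries tried. Over all tested genes, 3 were higher and 21 lower, against 8 and 55 with libraries centred, 7 and 66 with quantile normalization and 0 and 9 with no filter on low values, with 0 to 4 and 0 to 16 when 1 library or pair was left out. The replicate block gave 1436 higher and 329 lower genes, among them 6 and 1 members and 24 and 5 other genes of the pathway. With the block and centred libraries these were 579 and 502, 2 and 2, and 12 and 7, and with quantile normalization 555 and 536, 2 and 2, and 13 and 7. With the block and both libraries of replicate 2 left out they were 2781 and 522, 24 and 2, and 50 and 4, and when centred too, an alternative chosen after seeing the data, 1271 and 1027, 14 and 2, and 26 and 9. With the block and the libraries of replicate 1, 3 or 4 left out, all genes gave 89 and 83, 236 and 149, and 42 and 48, members 0 and 0 each time, and the other pathway genes 0 and 1, 2 and 1, and 0 and 1. The fold change had another sign under at least 1 alternative in 15 of 39 members, with log2 fold changes of −0.03 to 0.11, among them 2 of the 17 named by the rule, Ctsl and Tfe3. Leaving out 1 library gave Ctsl −0.0733 to 0.283, with −0.0563 where the omitted library was replicate 2 of the miR-204 group. For Tfe3 it gave −0.112 to 0.0886, with 0.0253 and 0.00922 where replicate 1 or 4 of the miR-204 group was omitted, and 0.00223 without both replicate 2 libraries, with or without the block. The count of members that differed between replicate numbers was 36, and 27 to 35 without a pair. Why counts changed between fits was not tested. FPKM values give no counts, so the lowest members have no counting interval.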
